A study of Arabidopsis thaliana with 4 samples.

Results

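The genes described here encode UDP-glycosyltransferases and the tau and phi classes of glutathione transferases of Arabidopsis thaliana. They were taken by name: a gene was a member when its symbol, with or without a leading AT, starts UGT, GSTU or GSTF followed by a digit, and when a probe set is annotated to that nuclear gene alone. The rule found 60 genes of the 13217 nuclear genes that have such a probe set, namely 47 UGT, 11 GSTU and 2 GSTF genes. The gene table of the TAIR10.1 assembly lists 58, 27 and 13 nuclear genes with such symbols, and those without a probe set annotated to them alone are not analysed here. No member had a second probe set to choose from.

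RNA came from shoots above the soil of 2 groups, plants overexpressing the basic helix-loop-helix transcription factor bHLH122 in the Col-0 background and untreated wild-type Col-0, with 2 Affymetrix arrays each. Seeds of both groups were stratified for 96 h, and the plants grew for 1 week on MS medium and 2 weeks in soil. The source labels call the overexpressor arrays independent lines, but both titles carry the line number 18, and the promoter of the transgene is not given in the sources used here. No probe set is annotated to bHLH122, so the overexpression itself could not be checked. The labels do not state whether the wild-type plants were grown as separate cultures, and p-values therefore cover no more than the spread of these samples, possibly a technical one. The median signal of the 4 arrays lay between 39.2 and 40.8, and their small number limits the precision. In whole shoots, fewer cells of a type and less RNA per cell cannot be told apart.

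UDP-glycosyltransferases move a sugar from a UDP-sugar to a small molecule such as a hormone, a flavonoid, a lignin precursor or a foreign compound, which usually makes the acceptor more soluble and often inactive. Glutathione transferases join the tripeptide glutathione to reactive or foreign molecules or act as binding proteins, and the tau and phi classes are the large plant classes. Conjugates of both kinds are commonly stored in the vacuole, and many genes of both kinds are known for their response to herbicides, pathogens and reactive electrophiles. Both families have grown by tandem duplication, so that neighbours on a chromosome are often close relatives.

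Most members did not differ between the groups beyond the error of the fit. In limma, fitted on log2 signal over all 22746 probe sets with Benjamini-Hochberg adjustment and a threshold of 0.05, 3 of the 60 genes were higher in the overexpressors, 4 were lower and 53 did not pass. The background is high in this comparison: 24.0% of all tested probe sets passed, 12.2% as higher and 11.8% as lower, against 11.7% of the members. At an unadjusted p under 0.05 there were 6 members higher and 7 lower, together 13 of 60, where 36.2% of all probe sets had such a p. No member changed by 2-fold or more, whereas 776 probe sets (3.41%) passed the threshold with a change of that size. The share of members called was thus below the background, and the count is not read as a result about the families.

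The fit gave an interval for each change. Log2 fold changes, given throughout as overexpressor minus wild type, ran from -0.72 (UGT72E1) to 0.56 (UGT76E11), with a median of -0.004 over the 60 members and -0.02 over all probe sets. The 95% confidence interval of the fit lay within 0.5 of zero on the log2 scale for 33 members and within 1 of zero for all 60. These intervals are per gene, rest on 2 arrays a group and leave out the trend with gene length described below, so they set no firm bound. With that trend removed UGT80B1, for example, was at -0.43 (interval of the main fit -0.38 to 0.29) and GSTF4 at 0.55 (interval -0.08 to 0.50). The overexpressor arrays both lay above or both below the wild-type arrays for 31 members, 17 above and 14 below, which is 51.7% against 61.2% of all tested probe sets.

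**Figure D1:**
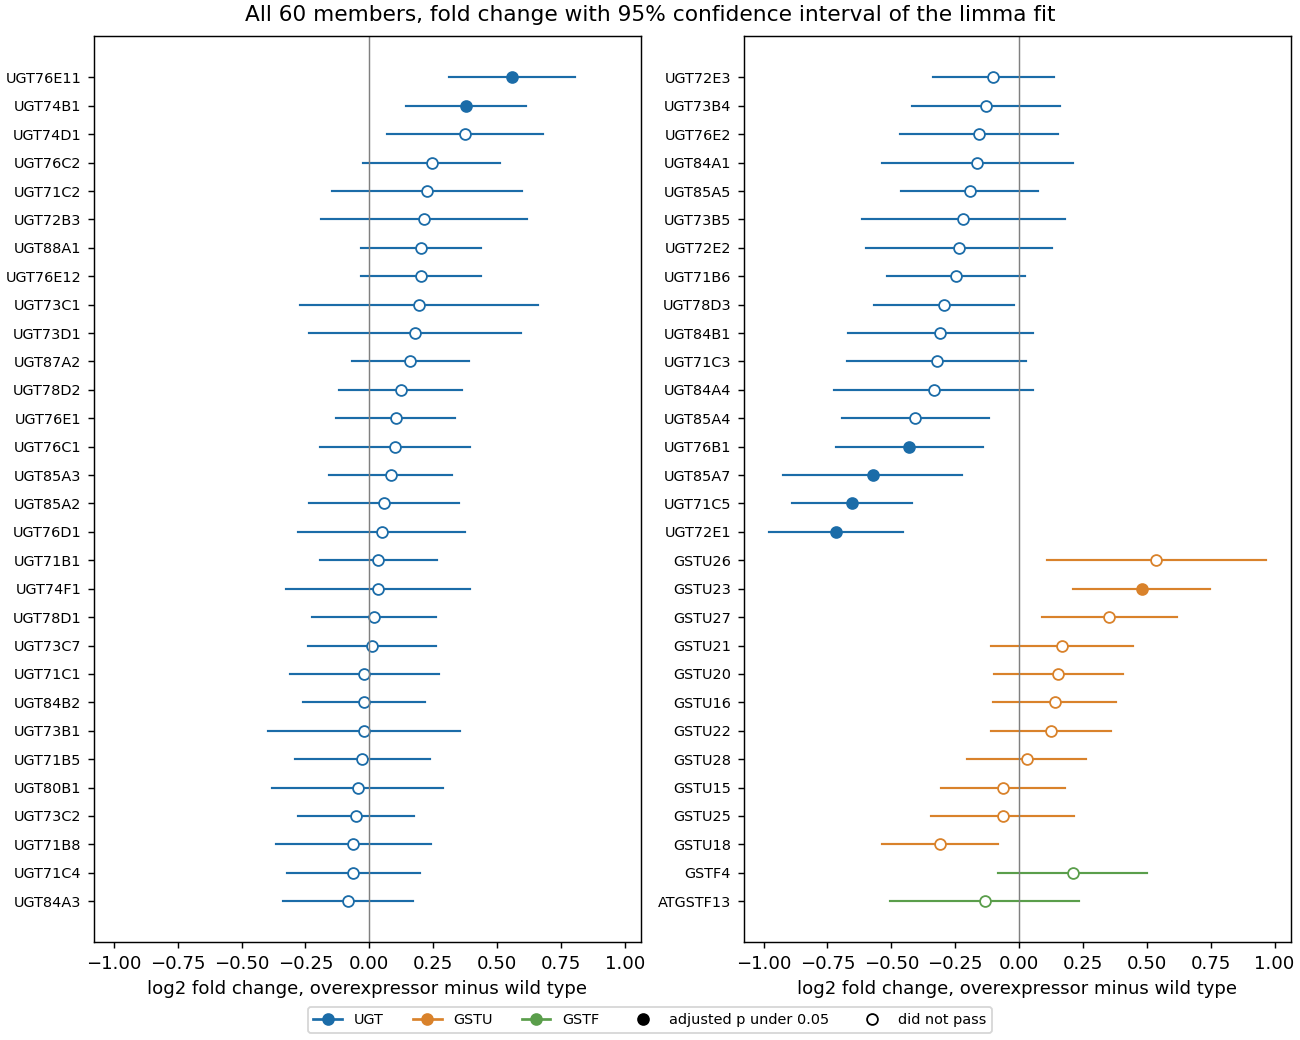
Log2 fold change (x axis, overexpressor minus wild type) of the 60 members (rows), by family and within it from high to low; lines are 95% confidence intervals of the limma fit and filled points have an adjusted p under 0.05. Filled points lie on both sides of zero among the 47 UGT genes, 1 of the 11 GSTU genes is filled, on the positive side, and neither GSTF gene is.

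By family, of the UGT genes 2 were higher, 4 lower and 41 did not pass (12.8% called, against 24.0% of all tested probe sets). They had 21 positive and 26 negative fold changes and a median of -0.02. The positive share was 44.7%, close to the 47.3% of all tested probe sets. Of the GSTU genes 1 was higher, 10 did not pass and none was lower (limma, 9.09% called). At an unadjusted limma p under 0.05, 3 were higher and 1 lower, where 36.2% of all tested probe sets had such a p. Their fold changes were positive in 8 genes and negative in 3 (72.7% positive), with a median of 0.14. The 2 GSTF genes had fold changes of 0.21 and -0.13, and neither passed. The mean log2 signal over the GSTU genes was 5.76 and 5.75 in the overexpressors, against 5.61 and 5.63 in wild type, so the groups were apart. Taken singly, 61.2% of all tested probe sets also had groups apart. Over the UGT genes it was 5.08 and 5.18 in the overexpressors and 5.17 and 5.19 in wild type, where the groups overlapped. The difference between the families was not tested, because genes of one family are no replicates and 2 arrays a group allow no two-sided permutation p below 0.333.

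Among the UGT genes that rose is UGT74B1 (AT1G24100, chromosome 1), whose enzyme adds glucose to thiohydroximates, a late step in the synthesis of glucosinolates. Signals of UGT74B1 were 475 and 445 in the overexpressors, against 356 and 350.3 in wild type. The groups did not overlap, and the rise was 1.30-fold (log2 fold change 0.38, SE 0.10, limma adjusted p = 0.0350). Leaving out any 1 of the 4 arrays took the call away, with adjusted p between 0.0825 and 0.160 and fold changes of 0.33 to 0.43.

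UGT76E11 (AT3G46670, chromosome 3), a glucosyltransferase that takes flavonols as acceptors, had signals of 61.6 and 55.8 in the overexpressors and 40.2 and 39.4 in wild type. Both overexpressor arrays were above both wild-type arrays, by 1.47-fold (log2 fold change 0.56, SE 0.10, limma adjusted p = 0.0119). Without overexpressor replicate 1 the adjusted p was 0.0586, and without wild-type replicate 2 it was 0.0521.

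The largest fall among the members was in UGT72E1 (AT3G50740, chromosome 3), which glucosylates the aldehyde precursors of lignin. Signals were 147 and 161 in the overexpressors, against 239.6 and 267 in wild type. The lowest wild-type array was well above the highest overexpressor array, and the gene was 1.64-fold lower (log2 fold change -0.72, SE 0.11, limma adjusted p = 0.00690). Its relatives UGT72E2 and UGT72E3, whose enzymes act on the lignin alcohols, had log2 fold changes of -0.24 (SE 0.15) and -0.10 (SE 0.10) and did not pass.

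UGT71C5 (AT1G07240, chromosome 1) encodes an enzyme that couples glucose to abscisic acid and so inactivates this drought hormone. It gave signals of 77.9 and 75.1 in the overexpressors and 124 and 117 in wild type, with no overlap. The gene was 1.57-fold lower (log2 fold change -0.65, SE 0.10, limma adjusted p = 0.00637). UGT71C5 and UGT72E1 passed in each of the 12 alternative fits that share variance between probe sets, with each array left out among them. With ordinary statistics neither passed, nor did any other member, where 5 of all 22746 probe sets (0.022%) passed.

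A further pair of UGT genes was lower at low signal. UGT85A7 (AT1G22340, chromosome 1) had 18.5 and 24.2 in the overexpressors and 31.9 and 31.1 in wild type (log2 fold change -0.57, SE 0.14, limma adjusted p = 0.0341). UGT76B1 (AT3G11340, chromosome 3), whose enzyme glucosylates isoleucic acid, salicylic acid and N-hydroxypipecolic acid and restrains immune signalling, had 11.4 and 9.47 in the overexpressors and 14.0 and 13.9 in wild type (log2 fold change -0.43, SE 0.12, limma adjusted p = 0.0455). In both genes the overexpressor arrays lay apart from each other more than the wild-type arrays did. UGT85A7 kept its call without overexpressor replicate 2 (log2 fold change -0.77) and lost it without any other array, for example at -0.38 without overexpressor replicate 1. UGT76B1 kept it without overexpressor replicate 1 (-0.56) and lost it without any other array, at -0.30 without overexpressor replicate 2. UGT76B1 lost its call in 7 of 11 alternative fits in all, quantile normalization and nuclear probe sets alone among them.

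**Figure D2:**
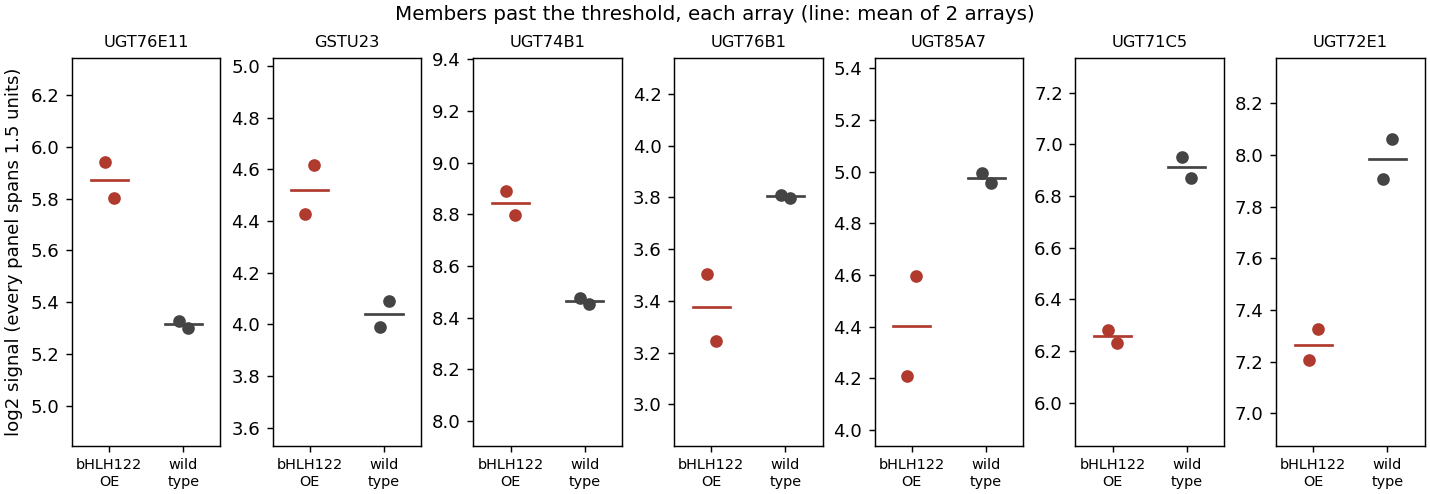
Log2 signal (y axis) on each array for the 7 members past the threshold, bHLH122 overexpressor arrays left and wild-type arrays right in each panel; points are single arrays, lines the mean of 2, and every panel spans the same 1.5 log2 units. The groups are apart in all 7 panels, which selection by the threshold favours, and 61.2% of all tested probe sets had groups apart. The overexpressor arrays of UGT85A7 (18.5 and 24.2 as signal) are farther from each other than those of the other genes.

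Apart from UGT71C5 and UGT76B1, the measured genes listed for the conjugation of hormones did not pass, at log2 fold changes from -0.31 to 0.37. Of the 3 measured genes of abscisic acid conjugation, UGT71C5 was lower, and UGT71B6 and UGT71B8 did not pass. UGT71B6, an abscisic acid glucosyltransferase, gave 10.8 and 12.1 in the overexpressors and 12.9 and 14.2 in wild type, a log2 fold change of -0.25 (SE 0.11) with the groups apart. For UGT71B8 the log2 fold change was -0.06 (SE 0.13), and its groups overlapped.

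For salicylic acid, UGT76B1 is described above, and UGT74F1, which forms the glucoside, stayed at 0.03 (log2 fold change, SE 0.15) without passing. Of the auxin conjugating genes UGT74D1 gave 183 and 183 in the overexpressors and 127 and 157 in wild type, apart but past no threshold (log2 fold change 0.37, SE 0.13, limma adjusted p = 0.0800). UGT84B1, which forms the glucose ester of indole-3-acetic acid, gave 9.75 and 9.74 in the overexpressors and 13.9 and 10.5 in wild type (-0.31, SE 0.15, did not pass). Both values turn on the wild-type arrays: without wild-type replicate 2 UGT74D1 was 0.53 (limma adjusted p = 0.0462) and UGT84B1 -0.52 (limma adjusted p = 0.0486), and without wild-type replicate 1 they were 0.22 and -0.10. The cytokinin N-glucosyltransferase genes UGT76C1 (0.10, SE 0.12) and UGT76C2 (0.24, SE 0.11) and the cytokinin O-glucosyltransferase gene UGT73C1 (0.20, SE 0.19) did not pass either.

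Of the flavonoid and anthocyanin list 5 genes were measured, the 3 UGT78 genes and 2 named UGT79 as a synonym, and none passed. UGT78D1, a flavonol rhamnosyltransferase, had 579 and 555 in the overexpressors and 583 and 537 in wild type, which overlap (log2 fold change 0.02, SE 0.10, interval -0.22 to 0.26). UGT78D2, which glucosylates flavonols and anthocyanidins, had 681 and 657 in the overexpressors and 639 and 590.3 in wild type (0.12, SE 0.10, interval -0.12 to 0.36). Their relative UGT78D3, a flavonol arabinosyltransferase, lay at 10.1 and 9.02 in the overexpressors and 12.3 and 11.1 in wild type (-0.29, SE 0.11).

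In the branch of hydroxycinnamate esters UGT84A1, UGT84A3 and UGT84A4 had log2 fold changes of -0.16 (SE 0.15), -0.08 (SE 0.10) and -0.33 (SE 0.16). With UGT84B1 and UGT84B2 (-0.02) all 5 measured UGT84 genes were negative, and none passed. The shared sign did not hold with the length trend removed, where UGT84A1 was 0.05 and UGT84A3 0.04, and UGT84A1 and UGT84B2 also changed sign with 1 array left out. UGT80B1, a sterol glucosyltransferase of membranes, had -0.05 (SE 0.14). The stress-responsive UGT73B4 and UGT73B5 had -0.13 (SE 0.12) and -0.22 (SE 0.16), and all 7 measured UGT73 genes stayed under the threshold, between -0.22 and 0.20.

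By subfamily, the gene numbers are small, and the calls are not read as a result, where 24.0% of all tested probe sets passed. UGT71 had 1 lower gene of 9 (11.1%), UGT72 1 lower of 4 (25%) and UGT74 1 higher of 3 (33.3%), with all 3 positive. UGT76 had 1 higher and 1 lower of 8 (25%), and UGT85 had 1 lower of 5 (20%). All 3 UGT74 genes stayed positive with the length trend removed, UGT74D1 at 0.21 (limma adjusted p = 0.342). With 1 array left out UGT74F1 ran from -0.17 to 0.24 and so changed sign. Close to the threshold lay UGT85A4, with 47.1 and 41.3 in the overexpressors and 62.3 and 54.8 in wild type (log2 fold change -0.41, SE 0.12, limma adjusted p = 0.0541). It was at -0.23 with the length trend removed (limma adjusted p = 0.252). UGT88A1, with signals of 1332 and 1426 in the overexpressors and 1184 and 1211 in wild type, was 1.15-fold apart (0.20, SE 0.10) and did not pass. UGT87A2, known for a role in flowering time, had 156 and 154 in the overexpressors and 136 and 142 in wild type (0.16, SE 0.09) and did not pass.

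Synonyms were searched only for the genes on the lists drawn up by role or pathway. Among those genes 4 carry a UGT name as a synonym and fall outside the rule. None of them passed in limma: UF3GT (UGT79B1), an anthocyanin xylosyltransferase, was at 0.32 on the log2 scale (SE 0.10), GT72B1 (UGT72B1), which conjugates chlorinated phenols and anilines, 0.07 (SE 0.11), AT5G54010 (UGT79B6) 0.13 (SE 0.09) and the sterol glucosyltransferase gene SGT (UGT80A2) 0.003 (SE 0.11). UF3GT had signals of 531 and 503 in the overexpressors and 427 and 403 in wild type, with the groups apart, and it passed with the length trend removed (0.43, limma adjusted p = 0.0361).

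Among the tau class glutathione transferases GSTU23 (AT1G78320, chromosome 1) rose. Its signal was 21.5 and 24.5 in the overexpressors and 15.9 and 17.0 in wild type. The groups were apart by 1.40-fold (log2 fold change 0.48, SE 0.11, limma adjusted p = 0.0255). The call held without overexpressor replicate 1 and not without any other array, where the adjusted p was 0.0639 to 0.113.

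A trio of GSTU genes lay just outside the threshold. GSTU27 gave 370.3 and 411 in the overexpressors and 320.4 and 291 in wild type (log2 fold change 0.35, SE 0.11, limma adjusted p = 0.0633). GSTU18 went the other way, with 482 and 499 in the overexpressors and 609.7 and 607 in wild type (-0.31, SE 0.09, limma adjusted p = 0.0585). GSTU26 gave 21.0 and 14.5 in the overexpressors and 11.8 and 12.3 in wild type (0.54, SE 0.18, limma adjusted p = 0.0757), and its overexpressor arrays were 0.53 log2 units apart, the widest gap within the overexpressor arrays among the members. All 3 genes had their groups apart, as had 61.2% of all tested probe sets. With the length trend removed GSTU18 was at -0.12 (limma adjusted p = 0.465). GSTU26 was then at 0.64 (limma adjusted p = 0.0595) and GSTU27 at 0.60 (limma adjusted p = 0.0181). The value of GSTU26 rests on 1 array: without overexpressor replicate 2 it was 0.80 and passed (limma adjusted p = 0.0119), and without overexpressor replicate 1 it was 0.27.

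GSTU20, which is linked to aliphatic glucosinolate synthesis and binds the jasmonate-conjugating enzyme JAR1, had signals of 3929 and 3955 in the overexpressors and 3348 and 3756 in wild type. The groups were apart by 1.11-fold, and the gene did not pass (log2 fold change 0.15, SE 0.10, interval -0.10 to 0.40). GSTU16 gave 227 and 217 in the overexpressors and 194 and 209 in wild type (0.14, SE 0.10). The remaining GSTU genes, GSTU15, GSTU21, GSTU22, GSTU25 and GSTU28, had log2 fold changes between -0.06 and 0.17 at signals of 7.63 to 20.6. GSTU25, known for conjugating the explosive TNT, gave 9.03 and 7.80 in the overexpressors and 8.44 and 9.12 in wild type, which overlap.

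The phi class is thinly covered. GSTF4 gave 76.5 and 64.1 in the overexpressors and 58.5 and 62.7 in wild type, apart but past no threshold (log2 fold change 0.21, SE 0.12). ATGSTF13 gave 7.66 and 8.36 in the overexpressors and 10.1 and 7.63 in wild type, which overlap (-0.13, SE 0.15). The better known phi genes, such as those tied to camalexin and anthocyanin transport, are not analysed here.

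Members next to each other in the TAIR10.1 order of protein-coding genes, with at most 1 gene between them, formed 15 clusters holding 36 of the 60 genes. In 4 clusters 1 gene passed, and in none did a second, where 11.7% of all members and 24.0% of all tested probe sets passed. With so few calls the lack of a second is not read as a result. All members of a cluster had the same sign in 9 of the 15 clusters, and 6 held both signs. The share among other neighbouring genes was not computed, so this count is not read as neighbours moving together. In the row UGT71C5, UGT71C4 and UGT71C3, UGT71C5 was lower while UGT71C4 had signals of 271 and 308 in the overexpressors and 298 and 305 in wild type (log2 fold change -0.06). In the row UGT85A7, UGT85A2, UGT85A5 and UGT85A3 the first was lower and the others lay between -0.19 and 0.08. The row GSTU23, GSTU22, GSTU21 and GSTU20 had 4 positive values, 0.48, 0.13, 0.17 and 0.15, of which the first passed. Whether genes within a cluster differ from each other was not tested. Close relatives can share probe sequence, but all 60 probe set names lack the suffixes that mark probes shared between transcripts.

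**Figure D3:**
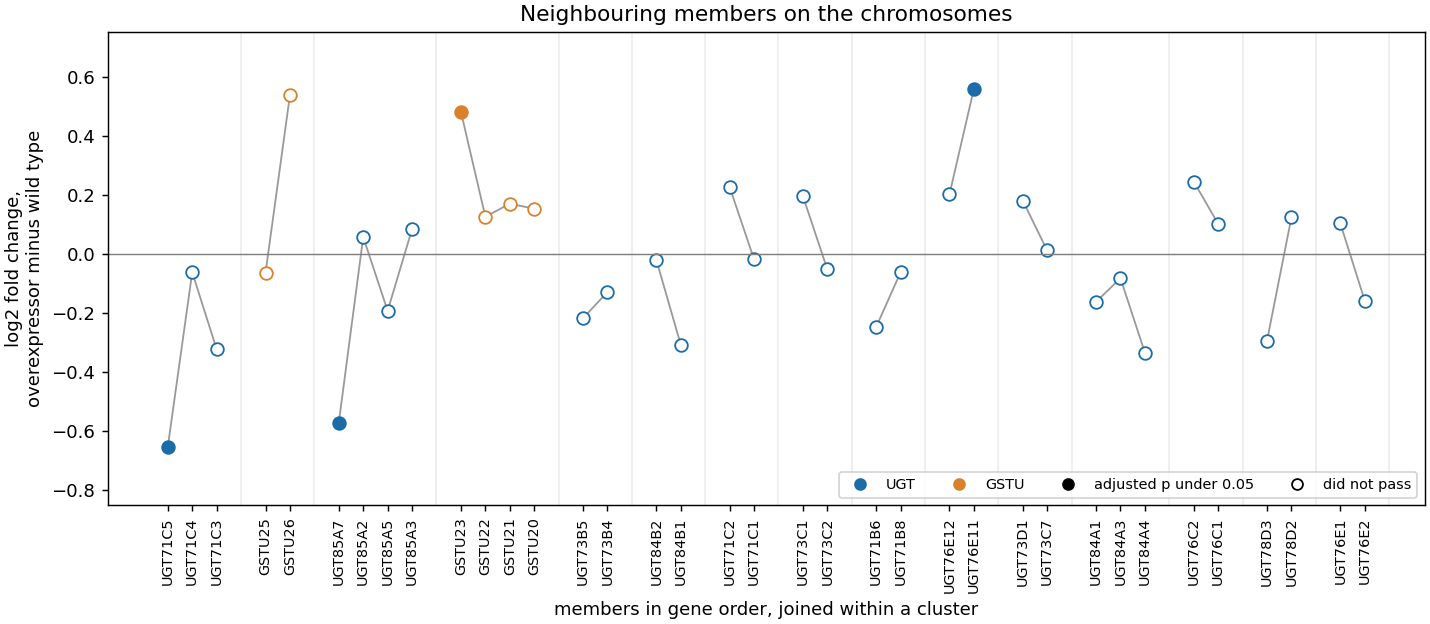
Log2 fold change (y axis, overexpressor minus wild type) of the 36 members that have another member beside them, in gene order (x axis) and joined within each of the 15 clusters; filled points have an adjusted p under 0.05. Each cluster with a filled point has 1, and its neighbours lie closer to zero.

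Of the 60 members 24 lay above the median of mean signal over all probe sets and 36 at or below it, 15 of them in the lowest quartile. Above the median 4 of 24 members passed (16.7%), where 36.6% of all probe sets above it did. At or below the median 3 of 36 passed (8.33%), where 11.4% of all probe sets did. None of the 15 members in the lowest quartile passed in limma (1 had an unadjusted p under 0.05), and no detection calls were used, so a change there may be understated.

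**Figure D4:**
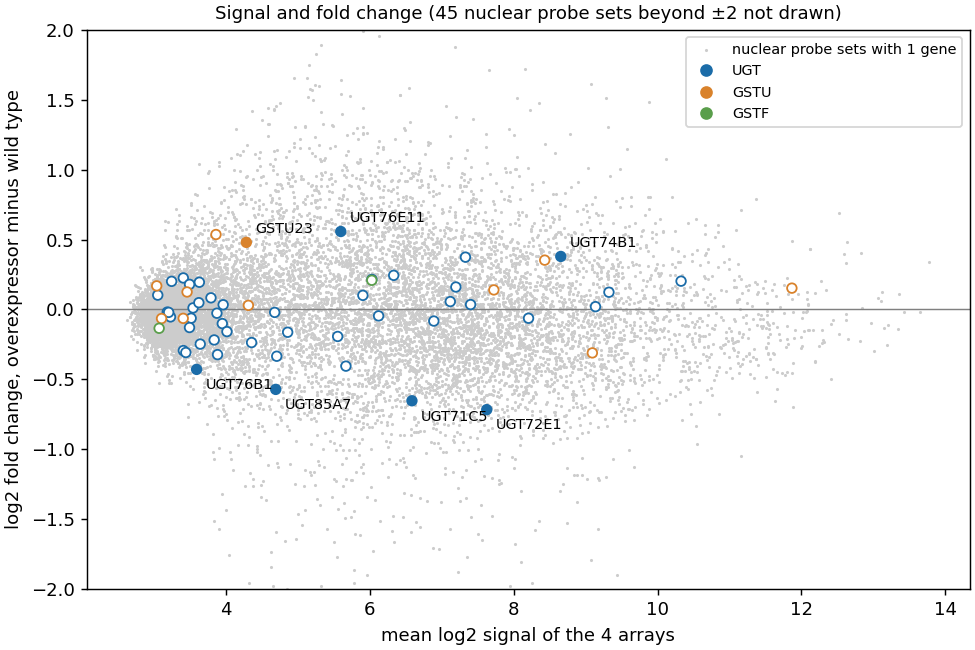
Log2 fold change (y axis, overexpressor minus wild type) against mean log2 signal of the 4 arrays (x axis) for the members, coloured by family and filled where the adjusted p was under 0.05, over all nuclear probe sets with 1 gene in grey; 45 grey points beyond 2 log2 units are not drawn. Most of the 36 members at or below the median of signal sit in the dense group at the left, near zero.

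Gene length moved with fold change on these arrays and is given beside the family values for that reason. The genes span 1317 to 5072 bp in the UGT family (median 1848) and 845 to 1724 bp in the GSTU family (median 1218). Over nuclear probe sets of genes over 1500 and up to 2000 bp the median log2 fold change was -0.09, with 4.75% higher and 17.2% lower, while of the UGT genes 4.26% were higher and 8.51% lower. Over those of genes over 1000 and up to 1500 bp the median was -0.10, with 1.86% higher and 18.8% lower, while the GSTU genes had a median of 0.14. Within the members, fold change and log2 length had r = -0.14 over the 60 genes and r = 0.07 over the 47 UGT genes, as a description.

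With the length trend removed from the nuclear probe sets, 7 members passed again, 5 higher and 2 lower, 5 of them with a call before. That is 11.7% of the members, where 15.6% of the 13367 probe sets in that fit passed. UGT76E11 (log2 fold change 0.74), UGT74B1 (0.47), GSTU23 (0.61), UGT72E1 (-0.68) and UGT71C5 (-0.49) kept their calls. GSTU27 (0.60, limma adjusted p = 0.0181) and GSTF4 (0.55, limma adjusted p = 0.0282) gained one, and UGT85A7 (-0.52, limma adjusted p = 0.0533) and UGT76B1 (-0.37, limma adjusted p = 0.0947) lost theirs. The medians were then 0.23 for GSTU, 0.21 for GSTF and 0.01 for UGT genes. Removal raised the value of every GSTU and GSTF gene, and nuclear genes of like length had negative medians before it. A biological relation to length, if there is one, is removed with the trend.

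**Figure D5:**
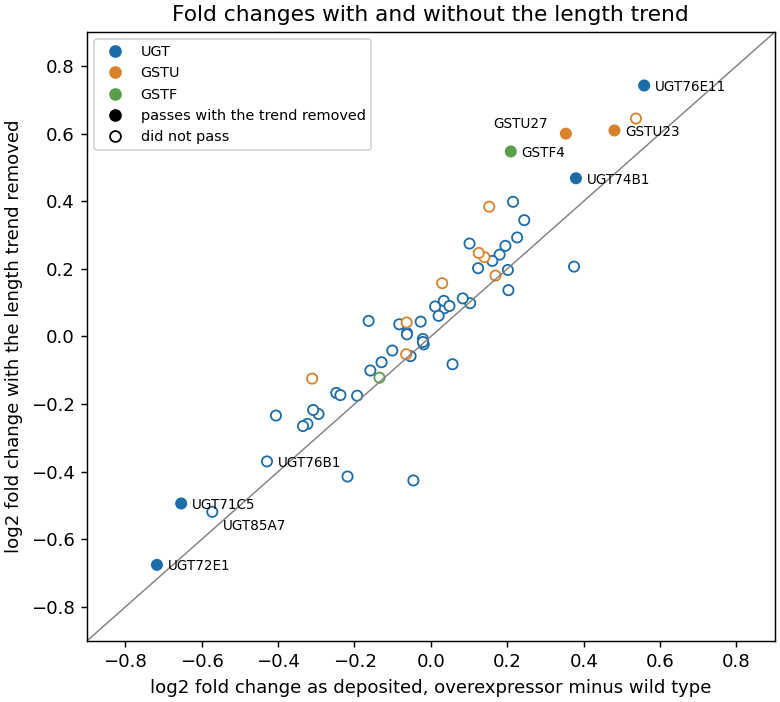
Log2 fold change with the length trend removed (y axis) against the value without removal (x axis), both overexpressor minus wild type, for the 60 members by family; filled points pass with the trend removed and the line marks equal values. All GSTU and GSTF points lie above the line, some of them only slightly, GSTU27 and GSTF4 are filled, and UGT85A7 and UGT76B1 are open.

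Few other genes of conjugation have a probe set annotated to them alone. Of the lists drawn up for glutathione, glucosinolates, sugar donors, detoxification regulators and carbonyl reductases, 9 genes were measured. These were a small part of the names, for example 2 of 23 for glutathione synthesis and recycling, 2 of 28 for glucosinolates and 1 of 32 for sugar donors. All 9 but AOP3 lay above the median signal, where 36.6% of all probe sets passed. The calls among them are not read as a result about the lists. Both glutathione reductase genes rose: GR, for the plastid and mitochondrial enzyme, had 1069 and 984 in the overexpressors and 594 and 633 in wild type (log2 fold change 0.74, SE 0.10, limma adjusted p = 0.00518). GR1, for the cytosolic enzyme, had 936 and 868 in the overexpressors and 513 and 541 in wild type (0.78, SE 0.10, limma adjusted p = 0.00430). Both genes are long, 3575 and 5271 bp, and with the length trend removed GR passed at 0.50 and GR1 did not (0.31, limma adjusted p = 0.0944).

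GSTL3, a lambda class glutathione transferase, had 2336 and 2313 in the overexpressors and 1755 and 1857 in wild type (log2 fold change 0.36, SE 0.10, limma adjusted p = 0.0385), and it lost the call when any 1 array was left out, with median centring, with the replicate block and with the length trend removed (0.32, limma adjusted p = 0.0791). AOR, a plastid reductase of reactive carbonyls, rose with 2625 and 2694 in the overexpressors and 1764 and 1825 in wild type (0.57, SE 0.09, limma adjusted p = 0.00906). GRX480, a glutaredoxin that binds the TGA transcription factors of detoxification genes, fell to 20.6 and 22.3 in the overexpressors, against 155 and 146 in wild type (-2.81, SE 0.10, limma adjusted p = 9.25e-05).

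The other 4 genes did not pass. They were USP, a pyrophosphorylase that makes UDP-sugars (log2 fold change 0.47, SE 0.15, and 0.68 with limma adjusted p = 0.0206 without overexpressor replicate 2), the alkenal reductase gene AER (-0.34, SE 0.12) and the glucosinolate genes BCAT4 (-0.32, SE 0.11) and AOP3 (0.20, SE 0.11). BCAT4 encodes the enzyme that starts methionine chain elongation. The ABCC transporters of the vacuole and the TGA factors themselves are not analysed here.

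As a check of the tissue, 4 of 7 listed markers of photosynthetic shoot were measured. Of all probe sets above the median signal 17.8% passed as higher, and of these markers 3 did (RCA, PRK and SBPASE). With the length trend removed 2 passed, and RCA did not (0.20, limma adjusted p = 0.240). Summed signal of these markers was 40898 and 38016 in the overexpressors and 30882 and 31297 in wild type. Of 5 listed root markers 2 were measured, and neither passed. EXPA7 gave 11.7 and 11.2 in the overexpressors and 10.8 and 13.7 in wild type. PYK10, at percentile 83.2 of signal, gave 328 and 282 in the overexpressors and 262 and 254 in wild type, with the groups apart. Of 3 listed meristem markers CLV3 alone was measured and lay between 8.19 and 9.34, and none of 4 listed flower markers was measured. All 24 probe sets of the spiked poly-A controls were lower in the overexpressors (median log2 difference -0.59), as were all 18 of the hybridization controls (-0.25). The part of these differences in the values of the members was not tested.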

How the data were processed

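For each probe set and array the authors deposited a signal intensity, and its values are linear. The submitters' processing notes name RMA, without a version, and the sources used here do not say how log values were turned back to a linear scale. Of 22810 probe sets 64 controls were left out, and 22746 were tested on log2 intensity with no further correction. The platform annotation names 1 gene for 13513 probe sets, several for 503 and none for 8730. Symbols were updated through the TAIR10.1 table (13436 matched), which also gave gene order and length, introns included. The groups were compared in R 4.3.3 with limma 3.58.1, using lmFit and eBayes with group as sole term (2 residual and 4.24 prior degrees of freedom, two-sided). The fit was tested on simulated data. The length trend was removed per array by lowess (span 0.5, 4 bins of mean signal) over 13367 nuclear probe sets. Per-array values were planned for members past the threshold, UGT74B1, UGT71B6, the member of each family with the highest signal and members of the role lists. All other members named here, such as UGT85A4, UGT87A2, UGT71C4, GSTU16, GSTU18, GSTU26, GSTU27 and ATGSTF13, were chosen after their values were seen. The members, lists and tests were chosen with earlier results of these data known. Samples with the same replicate number did not deviate together (correlation -0.0410), so the number was not used to pair them.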

Additional observations from a re-analysis of the deposited data

How the results depend on the processing

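Besides the settings above, the fit was run with quantile normalization, median centring, without dim probe sets, with an intensity trend and robust hyperparameters, with nuclear probe sets alone, with the length trend removed, with each array left out (a lone array then takes its spread from the other group) and with a replicate block; no member has a second probe set, so taking the dimmer one was not run. Of the single-gene values 714 changed neither sign nor call, 30 lost a call, 32 gained one and 46 changed sign. Calls were gained under at least 1 setting by UGT74D1, UGT84B1, UGT85A4, UGT88A1, GSTU18, GSTU26, GSTU27, GSTF4, USP, BCAT4, AER and UF3GT. The 2 higher UGT genes became 1 with the replicate block, 4 with the intensity trend and 0 with ordinary statistics, at an adjusted p under 0.01 or with a 1.5-fold minimum; the 4 lower became 2 with the replicate block, with the length trend removed, at 0.01 and with the 1.5-fold minimum, and 0 with ordinary statistics. The 1 higher GSTU gene became 2 with quantile normalization, the intensity trend or the length trend removed, and 0 with ordinary statistics, at 0.01 and with the 1.5-fold minimum; 1 lower GSTU gene, GSTU18, appeared with median centring, the intensity trend and without the lowest quartile or the probe sets up to the median signal. With the length trend removed 1 GSTF gene was higher. With 1 array left out there were 0 to 1 higher and 2 to 3 lower UGT genes and 0 to 1 higher GSTU genes, and medians ran from -0.0982 to 0.0419 (UGT), 0.0802 to 0.158 (GSTU) and -0.0396 to 0.114 (GSTF). The median was 0.235 for GSTU and 0.213 for GSTF with the length trend removed, and 0.209 for GSTF without dim probe sets, where GSTF4 alone is left. A stricter threshold or a fold minimum can only take calls away. The share of all tested probe sets that passed moved as well, from 24.0% to 15.9% with the replicate block and 29% with the intensity trend. It was 34.8% without the lowest quartile, 49.3% above the median signal and 0.022% with ordinary statistics. Fewer of all probe sets also passed with 1 array left out. Gains and losses are therefore not read as traits of these genes. For the other settings the cause of gains and losses was not tested.

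The sign changes were in genes that had not passed; their cause was not tested. With the length trend removed UGT71B5 was 0.0438, UGT71B8 0.0103, UGT71C4 0.00629, UGT84A1 0.0460, UGT84A3 0.0360, UGT85A2 -0.0822, GSTU15 0.0415 and SGT -0.351. Median centring gave UGT73C7 -0.0221, UGT78D1 -0.0130, GSTU28 -0.00365 and SGT -0.0302, and quantile normalization UGT71C1 0.00300 and UGT84B2 0.00693. With 1 array left out the log2 fold change ranged from -0.0998 to 0.0464 for UGT71B5, -0.210 to 0.0851 for UGT71B8, -0.141 to 0.104 for UGT71C1, -0.157 to 0.0320 for UGT71C4, -0.0152 to 0.446 for UGT72B3, -0.222 to 0.180 for UGT73B1, -0.448 to 0.0115 for UGT73B5, -0.0618 to 0.452 for UGT73C1, -0.0706 to 0.0928 for UGT73C7, -0.0154 to 0.375 for UGT73D1, -0.171 to 0.239 for UGT74F1, -0.0350 to 0.237 for UGT76C1, -0.115 to 0.212 for UGT76D1, -0.0391 to 0.0797 for UGT78D1, -0.196 to 0.104 for UGT80B1, -0.379 to 0.0532 for UGT84A1, -0.0798 to 0.0383 for UGT84B2, -0.0509 to 0.164 for UGT85A2, -0.170 to 0.0409 for GSTU25, -0.0137 to 0.0729 for GSTU28, -0.339 to 0.0699 for ATGSTF13, -0.0842 to 0.0903 for SGT and -0.0215 to 0.163 for GT72B1. No detection calls were used, so for the dimmest members a signal above background is not established.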
